A study of Mus musculus with 9 samples.

Results

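Binding of XBP1 was compared between a mouse liver in which XBP1 had been silenced and an unsilenced liver, both taken 6 h after partial hepatectomy. The members were the 2 libraries of that pair, out of 9 samples of the series, and the features were the genomic regions (peaks) called in each: 4325 in the silenced library and 22071 in the unsilenced library. XBP1 was mapped by chromatin immunoprecipitation with the antibody M-186 followed by sequencing. The silenced liver (PH6h - shXBP1) came from wildtype C57Bl6-J mice given, 7 days before surgery, a first-generation adenovirus that constitutively expresses a short hairpin RNA against XBP1. The unsilenced liver (PH6h) came from wildtype C57Bl6-J mice. Mice of both groups were operated on at 8 weeks of age. Clodronate liposomes, which deplete macrophages, were injected 24 h before the virus. The protocols name a control virus against LacZ. Whether it, or clodronate, was given to the unsilenced liver is not stated in the labels, and neither is the number of animals behind a library. Effects of virus and liposomes cannot be told apart from those of silencing.

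XBP1 is a factor that turns on genes in the unfolded protein response. When unfolded proteins build up in the endoplasmic reticulum (ER), the sensor IRE1 splices the Xbp1 messenger RNA, and the spliced form encodes an active factor that raises the synthesis of chaperones, folding enzymes, translocation proteins and proteins of ER-associated degradation. The hepatocyte secretes large amounts of plasma protein, and after hepatectomy the remaining liver regrows while it goes on secreting and mounts an acute-phase response. The factor is known to bind DNA at elements with a CCACG core, among them the ER stress response element, in which CCAAT and CCACG are set 9 bases apart.

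Promoters of 7 genes whose loci carry the main contrasts are shown, since the deposited lists hold positions but no sequence. Each run covers 250 bases before to 50 bases after the RefSeq transcription start in GRCm38.p6, 5′ to 3′ on the strand of the gene. Capitals mark matches, on either strand, of the core CCACG and the longer CCACGT, and the fixed letters of the ER stress response element, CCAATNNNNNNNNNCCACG, and of its second form, in which ATTGG stands 1 base before the core. These GRCm38.p6 coordinates cannot be set beside the mm9 coordinates of the peaks. The first 5 genes, with a peak kept after silencing, are Hspa5 (chr2:34771840-34772139, plus strand), Hsp90b1 (chr10:86705395-86705694, minus strand), Syvn1 (chr19:6046326-6046625, plus strand), Herpud1 (chr8:94386179-94386478, plus strand) and Dnajb9 (chr12:44210019-44210318, minus strand). The others, with peaks in the unsilenced list alone, are Edem1 (chr6:108828391-108828690, plus strand) and Fgb (chr3:83049814-83050113, minus strand).
Hspa5: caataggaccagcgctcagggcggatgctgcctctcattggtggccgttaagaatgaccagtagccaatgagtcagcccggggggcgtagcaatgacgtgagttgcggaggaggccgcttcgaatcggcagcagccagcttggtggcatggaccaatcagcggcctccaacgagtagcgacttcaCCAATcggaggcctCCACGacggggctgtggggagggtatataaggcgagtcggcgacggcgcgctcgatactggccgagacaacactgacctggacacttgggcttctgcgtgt
Hsp90b1: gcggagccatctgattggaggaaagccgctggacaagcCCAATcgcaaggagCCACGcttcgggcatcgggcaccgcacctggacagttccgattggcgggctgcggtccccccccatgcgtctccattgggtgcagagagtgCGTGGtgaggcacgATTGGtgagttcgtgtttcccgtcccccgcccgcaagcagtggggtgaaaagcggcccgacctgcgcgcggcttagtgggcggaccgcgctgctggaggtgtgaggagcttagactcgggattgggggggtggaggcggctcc
Syvn1: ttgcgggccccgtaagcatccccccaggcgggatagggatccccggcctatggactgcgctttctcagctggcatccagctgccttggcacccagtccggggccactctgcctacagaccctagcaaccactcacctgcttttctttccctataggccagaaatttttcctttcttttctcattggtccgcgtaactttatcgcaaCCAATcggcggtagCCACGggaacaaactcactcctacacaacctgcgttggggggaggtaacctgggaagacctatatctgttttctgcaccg
Herpud1: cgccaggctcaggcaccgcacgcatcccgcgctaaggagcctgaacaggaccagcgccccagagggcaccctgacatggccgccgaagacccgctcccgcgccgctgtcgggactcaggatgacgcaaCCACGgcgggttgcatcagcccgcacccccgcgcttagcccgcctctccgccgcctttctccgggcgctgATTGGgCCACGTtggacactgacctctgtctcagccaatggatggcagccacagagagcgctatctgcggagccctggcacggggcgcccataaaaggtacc
Dnajb9: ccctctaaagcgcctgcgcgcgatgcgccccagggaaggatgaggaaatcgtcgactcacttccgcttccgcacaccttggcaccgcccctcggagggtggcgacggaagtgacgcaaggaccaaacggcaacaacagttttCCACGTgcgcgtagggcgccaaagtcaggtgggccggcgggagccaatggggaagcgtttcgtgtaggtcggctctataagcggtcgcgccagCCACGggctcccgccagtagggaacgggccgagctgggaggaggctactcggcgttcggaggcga
Edem1: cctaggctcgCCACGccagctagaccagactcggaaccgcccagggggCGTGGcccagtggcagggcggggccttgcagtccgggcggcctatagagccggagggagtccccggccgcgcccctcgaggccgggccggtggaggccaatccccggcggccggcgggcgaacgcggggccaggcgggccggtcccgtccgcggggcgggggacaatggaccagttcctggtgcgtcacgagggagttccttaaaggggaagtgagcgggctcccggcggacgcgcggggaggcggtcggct
Fgb: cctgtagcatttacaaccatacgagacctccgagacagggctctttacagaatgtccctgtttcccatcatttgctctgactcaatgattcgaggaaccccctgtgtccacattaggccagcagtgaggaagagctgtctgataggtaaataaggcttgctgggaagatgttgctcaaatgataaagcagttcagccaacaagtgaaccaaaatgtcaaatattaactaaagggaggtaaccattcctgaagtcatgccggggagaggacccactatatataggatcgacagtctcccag

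The Hspa5 and Syvn1 promoters each held 1 complete ER stress response element and the Hsp90b1 promoter held 2. The Herpud1 promoter held 1 element of the second form, which overlapped its CCACGT. Of the 2 CCACG in the Dnajb9 promoter 1 was a CCACGT, and the Edem1 promoter held 2 CCACG and no longer motif. The Fgb promoter held none of these letters. Among all 32851 promoters of the same length, 32.8% held CCACG, 8.31% held CCACGT, 0.119% held the complete element and 0.0365% held the second form. CCACGT and both elements contain CCACG, so the counts overlap.

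A peak of the unsilenced list was called kept where a silenced peak overlapped it by at least 1 bp, and lost otherwise. The silenced list kept 4174 of the 22071 unsilenced peaks (percent called 18.9, 95% Clopper-Pearson interval 18.4 to 19.4%), and 17897 were lost. A list of 4325 peaks can meet only a limited part of one of 22071: between equal numbers of highest-scoring peaks from each list the share kept was 68.0% (66.6 to 69.4%). Seen from the silenced list, 4248 of its 4325 peaks lay on an unsilenced peak and 77 did not (percent called 1.78, interval 1.41 to 2.22%). With 1 library per condition there is no spread between animals and no test between conditions, and intervals cover counting error only. A peak that is not called may have fallen below the caller's threshold. No read numbers are at hand, so a shallower silenced library cannot be told apart from weaker binding.

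Kept peaks were paired almost 1 to 1. Of the 4174 kept peaks, 4104 had 1 silenced partner, 68 had 2 and 2 had more, up to 5 silenced peaks on 1 unsilenced peak. No silenced peak reached over several unsilenced ones. The silenced list covered 1.59 Mb and the unsilenced list 11.0 Mb, of which 3.0 Mb lay in kept and 8.0 Mb in lost peaks.

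The rank of a peak within the unsilenced list was tied closely to whether it was kept. The score is the authors' own value per peak, read here as −log10 of a p-value because the lowest values lie near 5, although MACS 1.4 is known to write a larger multiple of that value. Ranks do not depend on this reading. They were taken within each list, and peaks of equal score share the better rank. All of the 100 highest-scoring unsilenced peaks were kept, as were all of the next 150. Ranks 251 to 500 held 3 lost peaks of 252 and ranks 501 to 1000 held 30 of 518. Between ranks 1001 and 2500, 76.9% (74.7 to 79.0%) were kept, and between 2501 and 5000 the share was 40.7% (38.8 to 42.7%). The share was 13.8% from rank 5001 to 10000, and 2.54% (300 of 11824 peaks) below that. The median score was 66.2 for kept peaks, with quartiles of 38.97 and 116.9, and 16.05 for lost peaks, with quartiles of 11.72 and 25.43. The ranges overlapped: kept peaks reached down to a score of 6.91 and lost peaks up to 246.51.

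**Figure D1:**
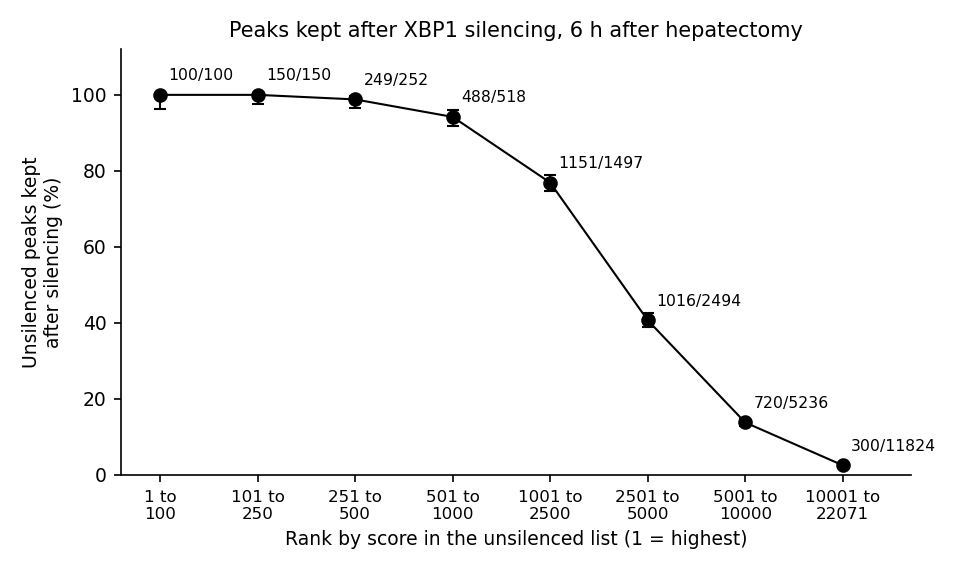
Share of unsilenced peaks kept after silencing (percent, vertical axis) in 8 classes of score rank in the unsilenced list (horizontal axis), with 95% Clopper-Pearson intervals and the number kept over the number of peaks. The share is 100% in the first 2 classes and 2.54% in the last.

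The silenced list was ordered much like the unsilenced one at its top. Over the 4174 kept peaks, each with its highest-scoring partner, the Spearman correlation of scores was 0.664, and over the 987 of them with an unsilenced rank of 1000 or better, ties included, it was 0.644. Both lists share the antibody and the mappability of each site, so the correlation is a description. Of the 100 silenced peaks of rank 1 to 100, 69 lay on an unsilenced peak of rank 1 to 100. For ranks 1 to 1000 the number was 719 of 1023 silenced peaks.

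The highest silenced peaks lay at loci of ER chaperones and at 2 sites of no listed gene. The first, on chromosome 2 (mm9 34626831 to 34627896), had a score of 377.07 in the silenced list and 768.2, at rank 3, in the unsilenced list. It lies in the window of Hspa5, which encodes BiP, the main Hsp70 chaperone of the ER. The second, on chromosome 10 (86167930 to 86168869), scored 336.5 in the silenced list and 828.25, at rank 1, in the unsilenced list. That is the window of Hsp90b1, the ER member of the Hsp90 family. The third, on chromosome 6 (28429768 to 28430487), scored 300.63 in the silenced list and 579.95, at rank 37, in the unsilenced list. The fourth, on chromosome 11 (50138895 to 50139785), scored 298.79 in the silenced and 704.13, at rank 9, in the unsilenced list, in the window of Canx, a lectin chaperone of the ER membrane. The fifth, on chromosome 5 (142875934 to 142876596), scored 290.51 in the silenced and 324.06, at rank 190, in the unsilenced list. The 3 chaperone sites were near the top of both lists.

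**Figure D2:**
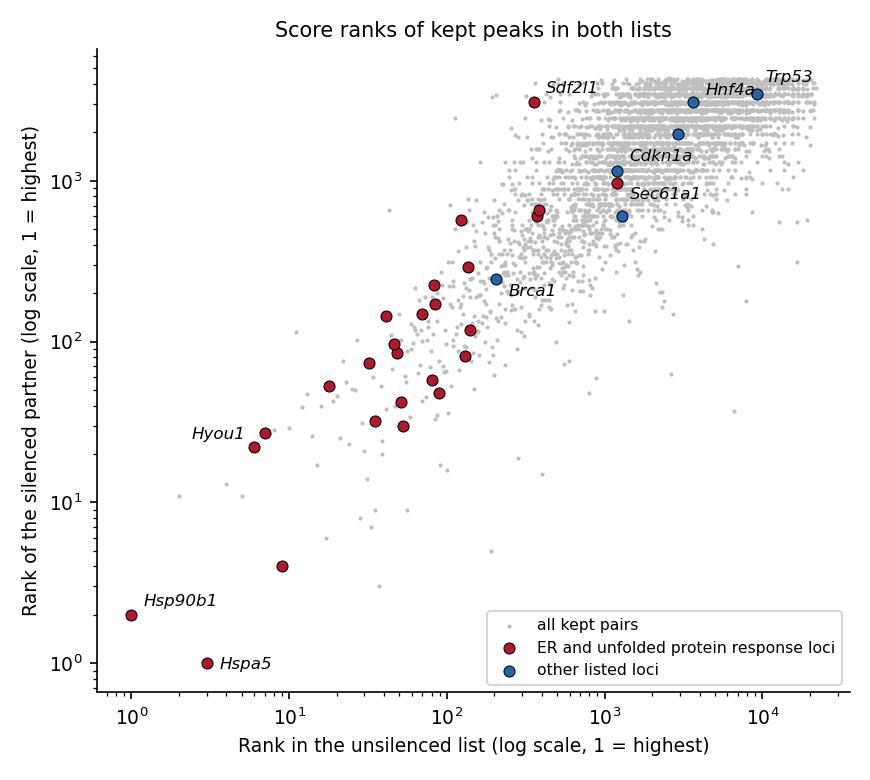
Rank of the silenced partner (vertical axis) against rank in the unsilenced list (horizontal axis), both on log scales, for the 4174 kept peaks (grey) and for the strongest peak of each listed locus where it was kept (red, ER and unfolded protein response loci; blue, other loci). Hspa5 and Hsp90b1 stand at ranks 1 and 2 after silencing, and Sdf2l1 stands at rank 3105 after silencing against 356 without.

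A set of 49 loci was placed on mm9 in windows of 10 to 180 kb, entered by hand from general knowledge of that map and rounded to 10 kb, so a window can hold parts of neighbouring genes. Of these loci, 28 belong to the ER and the unfolded protein response and 21 to other classes active in regenerating liver. All 49 had a peak in the unsilenced list, 171 peaks in all with 1 peak counted in a pair of adjoining windows. A kept peak was found at 26 of the 28 ER loci and at 9 of the 21 others. In peaks, 33 of 73 (45.2%) were kept at ER loci and 11 of 98 (11.2%) at the others, beside 18.9% over the whole list. The strongest peak of a locus had a median rank of 75 at ER loci and 4660 at the others. By rank, the counts were as follows. Among ranks 1 to 500, 26 of 27 peaks at ER loci and the only peak at the others were kept, beside 99.4% of all peaks. Among ranks 501 to 2500 the counts were 4 of 6 at ER loci and 2 of 4 at the others, beside 81.3%. Among ranks 2501 to 10000 they were 2 of 15 at ER loci and 6 of 31 at the others, beside 22.5%. From rank 10001 down they were 1 of 25 at ER loci and 2 of 61 at the others, beside 2.54%.

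**Figure D3:**
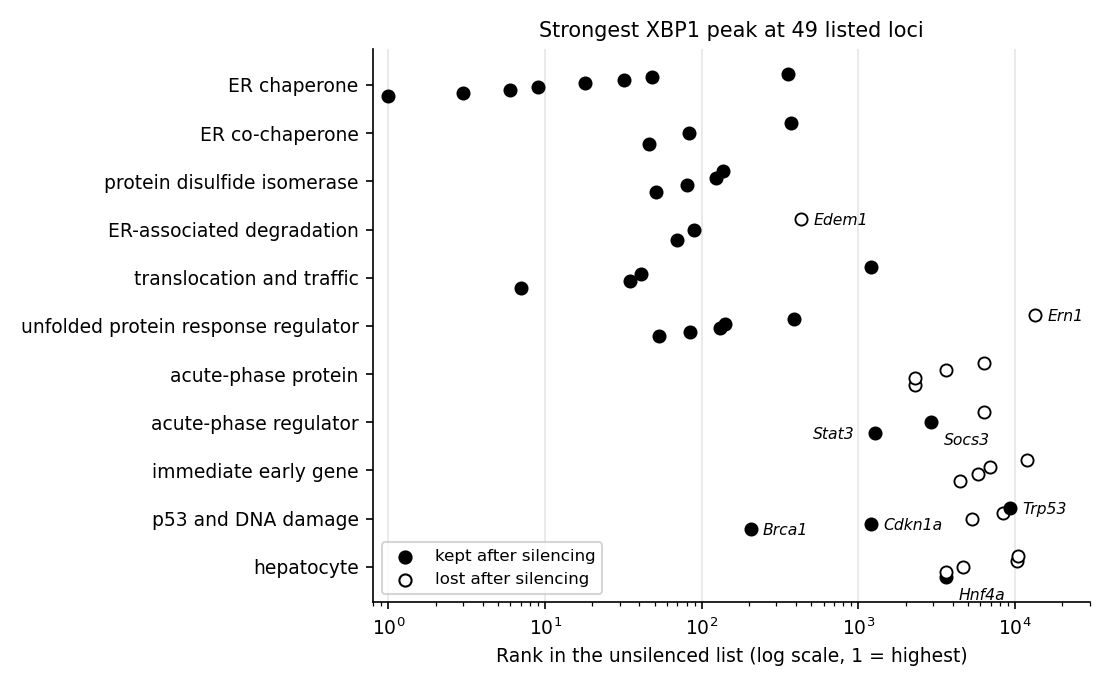
Rank in the unsilenced list (log scale) of the strongest peak at each of the 49 listed loci, by gene class; filled points were kept after silencing and open points were lost. ER classes lie mostly above rank 500 and are filled, except Edem1 and Ern1, and of the other loci only Brca1 lies above rank 1000.

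At all 8 ER chaperone loci the strongest peak was kept, at unsilenced ranks between 1 and 356. Of all peaks at ranks 1 to 500, 99.4% were kept. Hyou1 encodes a large Hsp70-like chaperone and exchange factor of BiP. Its strongest peak scored 196.46 (rank 22) in the silenced list and 730.13 (rank 6) in the unsilenced list. At Calr, a soluble lectin chaperone, the scores were 108.19 (rank 74) in the silenced and 592.4 (rank 32) in the unsilenced list. At Manf, a secreted ER stress protein, they were 132.91 (rank 53) in the silenced and 633.36 (rank 18) in the unsilenced list. These 3 sites held a place in the top 2% of the silenced list. Creld2, another ER stress protein, was likewise high in both, with 100.48 (rank 85) silenced and 538.13 (rank 48) unsilenced. The exception was Sdf2l1, an ER protein that works with BiP co-chaperones. Its peak scored 11.01 (rank 3105, the top 71.8% of the list) in the silenced library and 235.97 (rank 356, top 1.61%) in the unsilenced one. The site was also called in basal, 48 h hepatectomy and both sham livers, and in silenced basal liver.

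The co-chaperone loci kept their strongest peaks too, within ranks 1 to 500, where 99.4% of all peaks were kept. Dnajb9, a J-domain partner of BiP, had a score of 94.51 (rank 96) in the silenced list and 551.29 (rank 46) in the unsilenced one. For Dnajb11 the scores were 57.42 (rank 226) silenced and 450.64 (rank 83) unsilenced. Dnajc3, also known as p58IPK, had 31.49 (rank 602) silenced and 228.7 (rank 374) unsilenced. The Dnajc3 window held 5 further unsilenced peaks, and all of these weaker peaks were lost. They stood between rank 9583 and rank 20943. Of all peaks, 13.8% were kept from rank 5001 to 10000 and 2.54% below that.

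All 4 protein disulfide isomerase loci kept their strongest peak, at ranks where 100% of all peaks were kept. These enzymes form and rearrange disulfide bonds of secreted proteins. P4hb had 151.13 (rank 42) in the silenced and 526.4 (rank 51) in the unsilenced list, and Pdia6 had 131.1 (rank 58) silenced and 457.18 (rank 80) unsilenced. Pdia3 had 49.89 (rank 289) silenced and 372.69 (rank 137) unsilenced. Pdia4 had 32.84 (rank 568) silenced and 383.29 (rank 123) unsilenced. Their unsilenced ranks lay between 51 and 137, and their silenced ranks spread over a wider range, from 42 to 568.

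ER-associated degradation, which sends misfolded proteins to the proteasome, gave a split picture. Syvn1, the ubiquitin ligase of the pathway, had a score of 136.53 (rank 48) in the silenced and 441.86 (rank 89) in the unsilenced list. Herpud1, a membrane partner of that ligase, had 73.09 (rank 148) silenced and 470.51 (rank 70) unsilenced. Edem1, which recognises trimmed glycans on misfolded proteins, had no peak in the silenced list and 3 in the unsilenced one. Its strongest, on chromosome 6 (mm9 108778099 to 108778821), scored 213.1 at rank 433 in the unsilenced list, and the weaker ones scored 82.63 and 18.36. It was 1 of the 3 lost peaks among ranks 251 to 500, a class in which 98.8% were kept, and the nearest silenced peak lay 43397 bp away. The same site was called in silenced basal liver, with a score of 9.32 and a width of 60 bp. It was also called in the unsilenced libraries of basal liver (score 109.86), 48 h hepatectomy (100.31), 6 h sham (209.71) and 48 h sham (133.63). No peak was called there in silenced 48 h liver.

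At the 4 loci of translocation and vesicle traffic the strongest peak was kept in each. Over all peaks the kept share at these ranks was 100%, and 76.9% at the rank of Sec61a1. Ssr3, a subunit of the translocon-associated protein complex, had 185.91 (rank 27) silenced and 725.39 (rank 7) unsilenced. Lman2, a cargo receptor, had 171.65 (rank 32) silenced and 583.22 (rank 35) unsilenced. Serp1, a translocon-associated stress protein, had 74.7 (rank 144) silenced and 567.22 (rank 41) unsilenced. Sec61a1, the channel subunit, was weaker in both, with 23.69 (rank 972) silenced and 108.24 (rank 1204) unsilenced.

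Among the 6 regulators of the unfolded protein response, 5 kept their strongest peak. All 5 stood within ranks 1 to 500, where 99.4% of all peaks were kept. The Xbp1 window itself had 3 peaks in each list, and 2 of the unsilenced ones were kept. Its strongest, on chromosome 11 (5420492 to 5422277 unsilenced, 5420651 to 5421419 silenced), scored 184.03 (rank 30) in the silenced and 525.14 (rank 53) in the unsilenced list. The hairpin acts on the messenger RNA, and a peak at the gene does not measure how far XBP1 was lowered. Atf6, an ER membrane-bound transcription factor, had 103.93 (rank 81) silenced and 377.84 (rank 131) unsilenced. Eif2ak3, the kinase PERK, had 84.49 (rank 118) silenced and 366.2 (rank 141) unsilenced. Atf4, a factor downstream of PERK, had 66.73 (rank 172) silenced and 448.44 (rank 84) unsilenced. Ddit3, the factor CHOP, had 30.15 (rank 654) silenced and 224.77 (rank 386) unsilenced. The exception was Ern1, which encodes IRE1 itself: the silenced list had no peak, and the 5 unsilenced peaks were weak, the strongest scoring 15.26 at rank 13394. From rank 10001 down 2.54% of all peaks were kept.

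Acute-phase loci had weaker peaks. Fga, Fgb and Fgg encode the chains of fibrinogen, and Hp encodes haptoglobin, which binds free haemoglobin. Together their windows had 3 kept peaks out of 42 (7.14%, beside 18.9% for the whole list), and none of the 4 strongest peaks was kept. Most of the 42 stood at rank 10001 or below, where 2.54% of all peaks were kept. The strongest peak of each locus stood between rank 2302 and rank 6381, where kept shares over all peaks were between 13.8% and 76.9%. Fgb had no silenced peak and 14 unsilenced ones, the strongest scoring 69.19 at rank 2315. The Fga window had 1 silenced peak and 12 unsilenced peaks, and the kept one stood at rank 7857 of the unsilenced list. The Fgg window had 1 silenced and 8 unsilenced peaks, and the kept one stood at rank 15686. Hp had 1 kept peak out of 8, at rank 5547, whose silenced partner lay outside the window. The strongest Hp peak, at rank 2302, was lost. The regulators Stat3, the transcription factor of interleukin-6 signalling, and Socs3, its feedback inhibitor, each kept their strongest peak: Stat3 with 31.49 (rank 602) silenced and 103.11 (rank 1279) unsilenced, and Socs3 with 15.32 (rank 1948) silenced and 57.91 (rank 2912) unsilenced. Cebpb, a factor that drives acute-phase genes, had no silenced peak and 5 unsilenced peaks, the highest at rank 6381. Kept shares over all peaks at the ranks of these strongest peaks were 76.9% for Stat3, 40.7% for Socs3 and 13.8% for Cebpb.

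Immediate early genes, which are induced within hours of hepatectomy, had no kept peak. The windows of Fos, Jun, Myc and Atf3 held 7 unsilenced peaks, with the strongest of each locus between rank 4458 and rank 11950, where kept shares over all peaks were between 2.54% and 40.7%. The strongest unsilenced score was 41.78 at Atf3, 33.5 at Jun, 29.08 at Myc and 17.2 at Fos, and all 4 genes encode transcription factors. In the p53 and DNA damage class 5 of 14 peaks were kept (35.7%, beside 18.9% for the whole list), 3 of them at Brca1. The strongest peak of each locus stood between rank 205 and rank 9261, where kept shares over all peaks were between 13.8% and 100%. At Cdkn1a, which encodes the cell cycle inhibitor p21, the scores were 21.9 (rank 1142) silenced and 108.64 (rank 1199) unsilenced. At Brca1, a DNA repair gene, they were 54.53 (rank 245) silenced and 305.58 (rank 205) unsilenced. All 3 silenced peaks of that window lay on an unsilenced peak, beside 98.2% of the whole silenced list. Trp53, the gene of p53, had 9.97 (rank 3454) silenced and 21.94 (rank 9261) unsilenced. Mdm2, the ubiquitin ligase of p53, and Gadd45a, a growth arrest gene, had no kept peak. Brca1 was the only locus outside the ER classes with a peak above rank 1000.

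Hepatocyte loci had 1 kept peak among 18 (5.56%, beside 18.9% for the whole list). It lay at Hnf4a, a nuclear receptor of hepatocyte identity, and scored 10.99 (rank 3107) silenced and 48.97 (rank 3628) unsilenced. Alb (albumin), Apoa1 (the main protein of high-density lipoprotein) and Cebpa (a liver transcription factor) had 2, 2 and 4 unsilenced peaks and none in the silenced list. The strongest of these lay at rank 4660, at Cebpa. Over the hepatocyte class the strongest peak of each locus stood between rank 3628 and rank 10499. Kept shares over all peaks at those ranks were between 2.54% and 40.7%.

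Promoter sequences were at hand for 42 of the 49 listed genes and are credited to RefSeq, GRCm38.p6. Those of Atf6, Hp, Hyou1, Manf, Myc and Sec61a1 are among the genes named only. The complete ER stress response element was found in 8 of the 28 promoters whose locus kept its strongest peak (Calr, Canx, Creld2, Dnajc3, Hsp90b1, Hspa5, Pdia6 and Syvn1) and in 0 of the 14 whose locus lost it, beside 0.119% of all promoters. CCACGT was found in 8 of 28 (Dnajb9, Dnajc3, Herpud1, P4hb, Pdia6, Serp1, Ssr3 and Trp53) and in 0 of 14. The bare CCACG was found in 20 of 28 and in 6 of 14, beside 32.8% of all promoters. The kept group consists mainly of ER genes, which were listed for their role, so the counts describe these genes and not silencing. The window is 300 bases long, and peaks were wider than that in most cases.

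Silenced peaks were narrower than their partners and lay within them. The median width was 334.5 bp for the silenced partner and 633.0 bp for the kept unsilenced peak, and the silenced peak was the narrower of the pair in 98.1% of pairs (4095 of 4174). It lay entirely inside the unsilenced peak in 91.4% of pairs. The median ratio of widths was 0.557, with quartiles of 0.439 and 0.676, and it was 0.538 over the 987 pairs with an unsilenced rank of 1000 or better. Midpoints were a median of 46.0 bp apart, and within 100 bp in 76.2% of pairs. The width of a called region grows with its score, so a lower signal and a narrower bound region cannot be told apart from these lists. At Hsp90b1 the silenced peak had 940 bp and the unsilenced peak 2385 bp. At Hspa5 the widths were 1066 bp silenced and 1679 bp unsilenced.

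Kept unsilenced peaks were wider than lost ones, with medians of 633 bp and 395 bp, but this followed score. Within deciles of score the difference was largest in the highest one, where kept peaks had 780.5 bp and lost peaks 662 bp. In the second decile they had 591 bp and 586 bp. The kept median was the larger in 7 of 10 deciles. The highest decile spans scores of 71.86 to 828.25, so kept and lost peaks still differed in score within it.

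Kept peaks stood somewhat farther from their neighbours than lost peaks. The median distance to the nearest other unsilenced peak was 7843 bp for kept and 6487 bp for lost peaks, a difference of 1356 bp that was 2821 bp where each peak had to cover 50% of the other and 2601 bp without scores under 10. Another unsilenced peak lay within 5000 bp of 41.3% (39.8 to 42.8%) of kept and 45.4% (44.7 to 46.2%) of lost peaks. Within deciles of score the kept median was the larger in 9 of 10. It was 7538.5 bp for kept and 5957 bp for lost peaks in the highest decile, and the gap was wider among weak peaks, with 12332 bp for kept and 6673 bp for lost peaks in decile 6 and 19250 bp for kept and 6880 bp for lost peaks in decile 8. The exception was the lowest decile, with 17 kept peaks. Of the lost peaks 1.5% had a silenced peak within 500 bp and 11.5% within 5000 bp, and the median distance to one was 63880 bp. The share kept was alike in windows of 100 kb with 1 unsilenced peak (19.2%) and with 10 or more (18.4%, 16.5 to 20.4%).

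**Figure D4:**
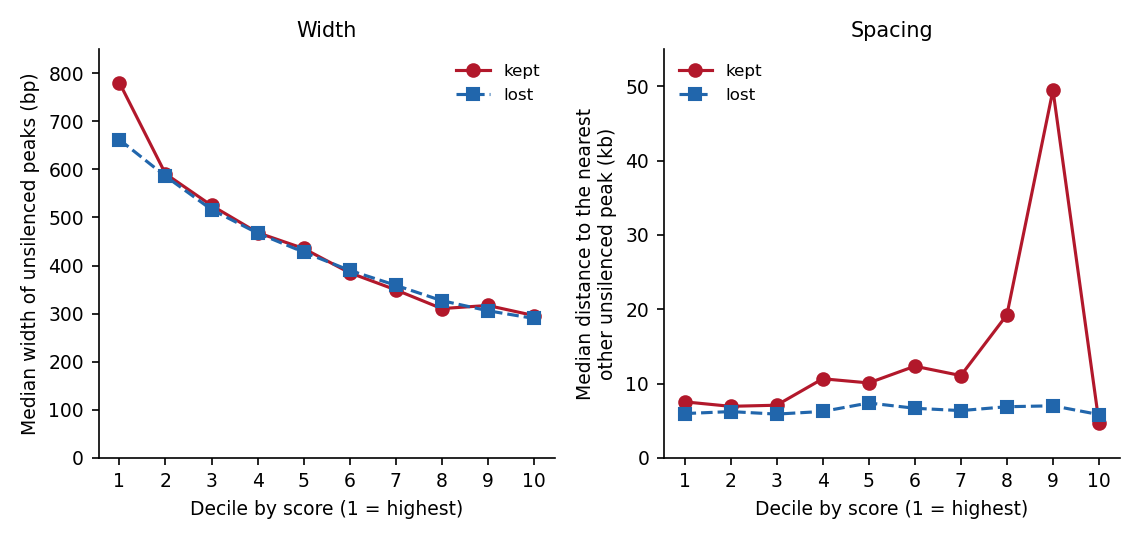
Median width (bp, left) and median distance to the nearest other unsilenced peak (kb, right) of kept and lost unsilenced peaks by decile of score, 1 being the highest. Widths lie close together beyond the first decile, and kept peaks are farther apart from their neighbours in all but the lowest decile; deciles 9 and 10 hold 27 and 17 kept peaks.

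The window of 100 kb with the most lost peaks spans the fibrinogen genes on chromosome 3 (82800001 to 82900000). It had 3 silenced and 35 unsilenced peaks, of which 32 were lost, beside 81.1% lost over the whole list. The window with the next most lost peaks, on chromosome 8, had 19 unsilenced peaks, of which 16 were lost. The most kept peaks in a window were 6. One such window lay on chromosome 4 (149100001 to 149200000), with 6 silenced and 10 unsilenced peaks. Another, on chromosome 9 (44100001 to 44200000), overlaps the Hyou1 window and had the same counts.

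Chromosomes kept similar shares, except the X. On the autosomes 4149 of 21813 peaks (18.5 to 19.5%) were kept, with 17.1% on chromosome 8 as the lowest and 21.6% on chromosome 19 as the highest share. On the X, 25 of 255 peaks (9.80%, 6.45 to 14.1%) were kept. The median score was 17.2 on the X and between 17.99 and 19.53 on the autosomes. Of the X peaks 8.24% (5.17 to 12.3%) stood in the highest decile of the list, an interval that includes the 10.1% of the autosomes. In that decile 16 of 21 X peaks (76.2%, 52.8 to 91.8%) were kept, against 87.7% (86.2 to 89.0%) on the autosomes. In the second decile 3 of 20 X peaks (15.0%, 3.21 to 37.9%) were kept, against 47.0% (44.9 to 49.1%) on the autosomes. None of the 3 peaks on the Y was kept.

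Lists of other livers, which played no part in the split, separated kept from lost peaks. Sites of basal liver made up 42.0% (40.5 to 43.5%) of kept and 3.67% (3.39 to 3.95%) of lost peaks. The 48 h hepatectomy list had 72.5% of kept and 18.7% of lost peaks, and the 48 h sham list had 61.9% of kept and 10.3% of lost peaks. The 6 h sham list had 96.6% of kept and 72.3% of lost peaks. Since kept peaks had higher scores, the same was read within deciles, which does not remove that difference in full. The highest decile spans scores of 71.86 to 828.25. Inside it the kept share was 100% at ranks 101 to 250 and 94.2% at ranks 501 to 1000. In the highest decile 67.7% (65.6 to 69.8%) of kept and 35.5% (29.9 to 41.5%) of lost peaks were basal sites, and 91.2% of kept and 72.1% of lost peaks were called 48 h after hepatectomy. In the same decile the 6 h sham list held 99.9% of kept and all 276 lost peaks. The share found 48 h after hepatectomy was larger for kept peaks in 10 of 10 deciles, that in basal liver and in 48 h sham liver in 9 of 10, and that in 6 h sham liver in 8 of 10.

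**Figure D5:**
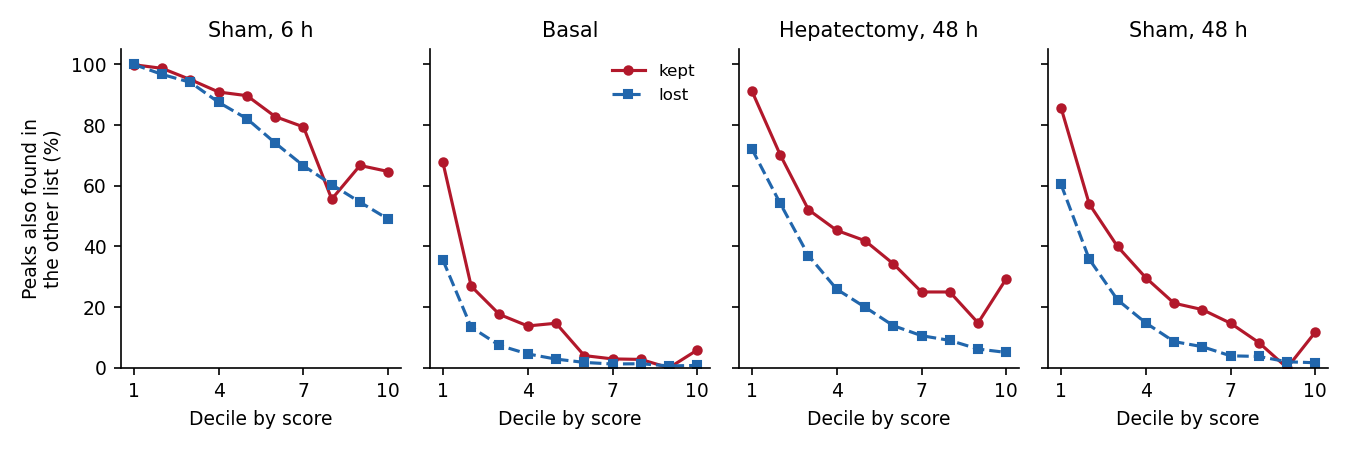
Share of kept and lost unsilenced peaks (percent) that were also called in each of the 4 other unsilenced livers, by decile of score in the unsilenced 6 h hepatectomy list, 1 being the highest. Kept peaks lie above lost peaks in basal liver and at 48 h in nearly all deciles, and the 6 h sham list holds nearly all peaks of both kinds in the first decile.

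The other silenced lists were short and held few of these sites. The silenced basal list was met by 117 kept peaks (2.80%) and 2 lost peaks, and the silenced 48 h list by 65 kept peaks (1.56%) and 5 lost peaks. The 2 lost peaks found in silenced basal liver include that of Edem1.

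Of the 5 lost peaks with the highest scores, the first lay on chromosome 4 (95634068 to 95634700), scored 246.51 at rank 328 and was 423389 bp from the nearest silenced peak. The second was that of Edem1. The third lay on chromosome 6 (118428863 to 118429775), scored 213.07 at rank 435 and was 570973 bp from a silenced peak. The fourth, on chromosome 5 (74812054 to 74812845), scored 190.78, and the fifth, on chromosome 4 (122638132 to 122638939), scored 188.82. All 5 were called in 6 h sham and 48 h hepatectomy liver, and the first 3 in basal liver. Of all lost peaks in the highest decile these lists held 100%, 72.1% and 35.5%.

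Some peaks were kept but changed place in the order. Moves were measured as differences in rank percentile, the rank as a percentage of the length of its list, and not in raw rank. Among the 1955 kept pairs in the top 10% of either list, the largest move up after silencing was on chromosome 3 (125459836 to 125460139), with a silenced score of 47.5 (rank 311) and an unsilenced score of 12.19 (rank 16516). The site had no peak in any of the other 6 lists. On chromosome 18 (90756224 to 90756710) the silenced score was 163.22 (rank 37) and the unsilenced score 30.66 (rank 6587), and on chromosome 11 (34712899 to 34713317) the silenced score was 65.23 (rank 180) and the unsilenced score 25.66 (rank 7857). At these 3 sites the silenced peak was the wider, with 525 bp silenced against 304 bp unsilenced on chromosome 3, 606 bp against 487 bp on chromosome 18 and 511 bp against 419 bp on chromosome 11. The next sites lay on chromosome 15 (41061740 to 41062151), with silenced rank 296 and unsilenced rank 7014, and on chromosome 9 (76400666 to 76401148), with silenced rank 402 and unsilenced rank 4876.

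The largest move down in rank percentile was on chromosome 13 (81796409 to 81797237). It had a silenced score of 6.17 (rank 4299) and an unsilenced score of 196.16 (rank 503). On chromosome 11 (78349519 to 78350305) the silenced score was 8.01 (rank 4068) and the unsilenced score 232.64 (rank 362). On chromosome 13 (63916078 to 63917164) the silenced score was 7.07 (rank 4234) and the unsilenced score 129.19 (rank 943). The others lay on chromosome 8 (13451641 to 13452272), with silenced rank 4284 and unsilenced rank 1374, and on chromosome 11 (115023364 to 115023949), with silenced rank 4234 and unsilenced rank 1144. All 5 were called in 6 h sham and in 48 h hepatectomy liver, and in each the silenced peak lay inside the unsilenced one. This was common: of all kept peaks in the highest decile 99.9% were called in 6 h sham and 91.2% in 48 h hepatectomy liver. Over all pairs 91.4% had the silenced peak inside. The silenced scores of these 5 sites lie near the lower end of the silenced list, 5.27.

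The 77 silenced-only peaks were weak, narrow and, in the median, farther from other silenced peaks. Their number depends on the rule: it was 380 with midpoints within 250 bp, 1713 where each peak had to cover 50% of the other, and 116 without peaks over 2 kb and the Y, and the description holds for the 77 alone. Their median score was 10.99, against 14.32 for silenced peaks on an unsilenced peak, and 62 of the 77 (80.5%, 69.9 to 88.7%) stood in the lower 50% of the silenced list. The median width was 273 bp, near the shortest peak of the list (247 bp), against 335 bp for the other silenced peaks. The nearest other silenced peak was a median of 123100 bp away, against 58190 bp for silenced peaks on an unsilenced peak. The nearest unsilenced peak was 1030 bp away at the least and 28590 bp in the median, and for 57 of the 77 it was over 10000 bp away. The 77 were picked for not touching an unsilenced peak, so that distance has no like comparison. None of the 77 overlapped a basal site or a peak of the other silenced lists (0 of 77, upper limit of the interval 4.68%). The basal list had 2482 peaks, and 2410 unsilenced peaks overlapped a basal site. For basal sites the 0 of 77 thus followed almost entirely from how the 77 were defined. Of silenced peaks on an unsilenced peak, 41.6% overlapped a basal site. Only 2.85% of those met the silenced basal list and 1.55% the silenced 48 h list, so 0 of 77 is little different there. The 6 h sham list held 27 of the 77 (35.1%, 24.5 to 46.8%), against 96.5% of silenced peaks on an unsilenced peak. Of the 77, 48 were in none of the other 6 lists.

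The highest-scoring silenced-only peak lay on chromosome 8 (127925292 to 127925711), with a score of 39.47 at rank 436, and was also called in 6 h sham, 48 h hepatectomy and 48 h sham liver. The next lay on chromosome 1 (42648706 to 42649193, score 29.82) and stood 505827 bp from the nearest unsilenced peak and in no other list. A site on chromosome 17 (24276201 to 24276637) scored 23.69. It was followed by one on chromosome 14 (57086939 to 57087284) at 20.0 and one on chromosome 6 (89247209 to 89247603) at 18.8. These 3 were called in 6 h sham liver. Of the 1023 silenced peaks of rank 1 to 1000, 3 were silenced-only, and of the 999 in the last 1000 ranks 31 were. No silenced-only peak lay in the window of a listed locus. Each of these windows held at most 3 silenced peaks, and 1.78% of all silenced peaks were silenced-only. Their absence there thus says little about the loci.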

How the data were processed

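Per the submitters' processing notes, reads were processed by the authors with Bowtie2 and MACS 1.4.2 on the mouse build mm9. Caller settings, read numbers and any use of the input as control are not stated in the sources at hand. Each deposited list gave position, peak name and a score of 1 library. The score deposited by the authors was read as −log10 of a p-value from its lowest values, which lie near 5. MACS 1.4 is known to write a larger multiple, and no header settles this. Scores were ranked within a list only, tied peaks sharing the better rank, and positions are 1-based mm9.

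Peaks overlapping by at least 1 bp were called shared. Widths, distances to the nearest peak, windows of 100 kb and presence in the other 6 lists were described by medians and counts, overall and by decile of score. No test was run, with 1 library per condition. The 95% intervals are Clopper-Pearson. Python 3.11.15, NumPy 2.4.6, pandas 2.3.3, SciPy 1.17.1 and matplotlib 3.10.9 were used. Overlap counts were checked against bedtools 2.31.1 on simulated lists.

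Peaks named are the 5 highest silenced, silenced-only and lost peaks, and those at 49 loci. Also named are the 5 largest moves of rank percentile up and down among kept peaks in the top 10% of either list. The 100 kb windows with the most lost and most kept peaks are named too. No mm9 annotation was at hand. Loci were entered by hand from general knowledge, in windows rounded to 10 kb. All 49 lay on the chromosome that RefSeq (GRCm38.p6) gives, and on 12 of 12 chromosomes with several loci the order matched. Promoters and motifs were chosen after the peaks were seen. Values of 1 listed locus are not reported here. Members, loci and rules were chosen with earlier results of these data known. Alternatives were other overlap rules, a score of at least 10, equal list lengths, resizing, filters and wider windows.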

Additional observations from a re-analysis of the deposited data

How the results depend on the processing

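The share of unsilenced peaks kept was 18.9%. It was 17.8% with midpoints within 250 bp, 11.8% where each peak had to cover 50% of the other, 17.4% after removal of scores under 10, and 68.0% between equal numbers of highest-scoring peaks. Silenced-only peaks numbered 77. There were 380 with the midpoint rule, 1713 with the 50% rule and 116 once peaks over 2 kb and the Y chromosome were left out. Silenced peaks are narrower, so the 50% rule lowers sharing by construction, and leaving out wide unsilenced peaks removes partners. For the midpoint rule the cause was not tested. The kept minus lost difference in median width was 238.0 bp, and 221.0 bp, 124.5 bp and 225.0 bp with the midpoint, 50% and score rules. The difference in median spacing was 1356 bp, and 2821 bp and 2601 bp with the 50% and score rules. Loci with a kept peak numbered 35, and 19 with the 50% rule. No value changed direction. No paired analysis was possible because each condition had 1 library. Unknown read numbers limit every statement on lost peaks, and the position of listed genes is known to about 10 kb only.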
